A study of Mus musculus with 16 samples.

Results

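The comparison described here is that of night with morning in the hypothalamus of wild type (WT) mice, chosen by the sample titles, and it holds 8 of the 16 libraries of the series. Whole hypothalamus RNA was sequenced from 4 WT mice killed at ZT1 and 4 killed at ZT13, where Zeitgeber time (ZT) counts the hours since lights on. Lights came on at 7:00 and went off at 19:00, so ZT1 (8:00) lies early in the rest phase of a mouse and ZT13 (20:00) early in its active phase. All mice were C57BL/6 males aged 3 months, bred from heterozygous parents and killed with CO2, and each library came from a different animal. The other 8 libraries, 4 at each time, are from ASIC1a-/- mice, which lack the acid-sensing ion channel 1a throughout the body, and are used only to set the WT change beside that of other animals. The study sequenced these animals to see how the channel acts on the hypothalamus. With a single time in each phase, the values give a difference between ZT1 and ZT13 and neither a peak nor an amplitude, and they cannot tell apart the clock, the light, feeding, activity or sleep, which all differ between these times.

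The mammalian clock is a feedback loop: the transcription factors CLOCK and BMAL1 bind E-box sequences and drive the *Per* and *Cry* genes, whose proteins then block them, and the REV-ERB and ROR nuclear receptors compete to repress or drive the gene for BMAL1. The suprachiasmatic nucleus of the hypothalamus is the pacemaker set by light. Hypothalamic nuclei around it govern feeding, body temperature, sleep and the release of pituitary hormones, and adrenal glucocorticoid, which in nocturnal rodents peaks near lights off, acts back on the brain through its receptor.

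Each WT library held 35058871 to 36029802 expected counts, and 15576 genes had over 1 CPM in at least 1 of the 8 libraries and were tested. CPM sets a gene's count against the total of its library, after edgeR's TMM scaling. The first principal component of these libraries (26.9% of the variance) separated the times, with ZT13 replicate 3 the nearest of the ZT13 mice to the ZT1 mice. The summed CPM of 36 transcription factor genes of hypothalamic nuclei was 479 to 485 at ZT1 and 507 to 539 at ZT13. Markers of cortex and hippocampus were at 1274 to 1350.2 CPM at ZT1 and 1277 to 1314 CPM at ZT13, those of the striatum at 592 to 603 and 580.1 to 589 CPM, and those of the thalamus at 427 to 550.2 and 413 to 427 CPM. Midbrain and mammillary markers were at 312 to 583 CPM at ZT1 and 310 to 494 CPM at ZT13, with replicate 1 highest at each time. Choroid plexus markers were at 313 to 330 CPM at ZT1 and 261 to 297 CPM at ZT13. No sum was tested. The ZT13 sums of the striatum and of the choroid plexus lay below those at ZT1, while the thalamic and midbrain sums overlapped. Without ZT1 replicate 4 (550.2 CPM) the highest thalamic sum at ZT1 was 452 CPM. In bulk tissue, fewer cells of a type and less RNA per cell cannot be told apart.

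Many genes changed between morning and night, and most changed little. At ZT13, 1101 genes were higher (7.07% of those tested) and 930 lower (5.97%), or 13.0% in either direction, at a Benjamini-Hochberg adjusted p under 0.05 in edgeR's quasi-likelihood test. The counts of list members given below are to be read beside these shares. The median size of the change was 0.20 on the log2 scale for both directions, 775 of the higher and 591 of the lower genes changed by under 0.25, and 26 rose and 9 fell by 1 or more. Groups of 4 mice did not overlap for 1006 of the higher and 848 of the lower genes, where 18.4% of all tested genes have groups that do not overlap. A smaller set passed in each of the 8 fits that leave out a mouse, 547 higher and 417 lower. Without ZT1 replicate 4 the counts fell to 667 higher and 530 lower, without ZT13 replicate 4 to 698 and 559, and without ZT13 replicate 3 to 777 and 618. With limma on the deposited TPM the counts were 208 and 227 on log2(TPM + 1) and 219 and 230 on log2(TPM + 0.1), and lower counts on these scales are given with several of the lists. Ranked by mean CPM into 4 sets of equal size, 5.34% of the lowest set were called, and 13.4, 17.7 and 15.7% of the following sets.

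**Figure D1:**
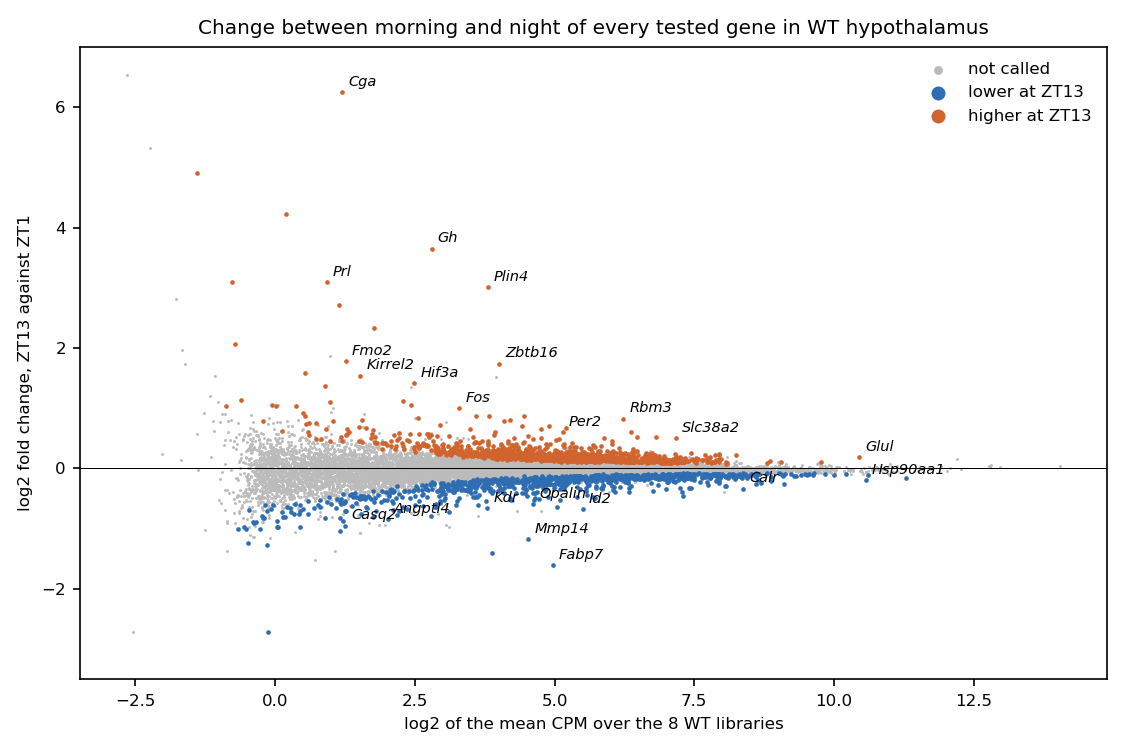
Log2 fold change between ZT13 and ZT1 in WT hypothalamus of each tested gene (dots) against the log2 of its mean CPM over the 8 libraries. Orange genes were higher and blue genes lower at ZT13 (adjusted p under 0.05), and 3 genes lie outside the axes, 1 of them called. Most calls lie close to 0, while *Plin4*, *Zbtb16*, *Fabp7* and *Mmp14* stand away from genes of like level.

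The repressing limb of the clock was higher at ZT13 and the gene of its main activator lower. Of 10 clock repressor genes 7 were higher and none lower, with a median log2 fold change of 0.26 against -0.01 for all tested genes, and all 10 had values above 0. Of the repressors 4 or 5 were higher on the TPM scales. Among the period genes, *Per2* was at 23.6, 27.1, 32.3 and 29.8 CPM at ZT1 and 44.2, 38.9, 41.0 and 46.9 CPM at ZT13. Its groups did not overlap (log2 fold change 0.60, SE 0.0810, adjusted p = 0.000552). *Per3* was at 40.8, 48.3, 48.5 and 47.8 CPM at ZT1 and 58.8, 57.7, 57.0 and 64.4 CPM at ZT13 (log2 fold change 0.36, SE 0.0558, adjusted p = 0.00147). *Per1*, the period gene that light and glucocorticoid also induce, was at 37.4, 42.7, 44.2 and 48.0 CPM at ZT1 and 56.0, 53.0, 49.6 and 59.8 CPM at ZT13 (log2 fold change 0.34, SE 0.0688, adjusted p = 0.00625). The ZT1 mouse lowest in *Per1*, *Per2* and *Per3* was the same, replicate 1, and no ZT1 library of the 3 genes reached a ZT13 library. *Cry1*, a cryptochrome that represses CLOCK and BMAL1 with the period proteins, rose by a like amount, with 21.3, 20.2, 21.2 and 20.986 CPM at ZT1 and 23.3, 27.7, 25.9 and 28.2 CPM at ZT13 (log2 fold change 0.33, SE 0.0567, adjusted p = 0.00273). The repressor *Bhlhe41*, a basic helix-loop-helix factor that competes at E-boxes, was at 44.0, 47.4, 42.1 and 46.5 CPM at ZT1 and 55.0, 57.4, 54.3 and 57.7 CPM at ZT13 (log2 fold change 0.32, SE 0.0419, adjusted p = 0.000464). *Nr1d2*, which encodes REV-ERB beta, varied least among the ZT13 mice, at 136, 140.4, 132 and 133 CPM at ZT1 and 156, 156, 154 and 156 CPM at ZT13 (log2 fold change 0.20, SE 0.0273, adjusted p = 0.000607). *Bhlhe40* passed narrowly (log2 fold change 0.15, SE 0.0451, adjusted p = 0.0428), with values of 0.00944 to 0.133 under other settings. It passed in 1 of the 8 fits without a mouse, that without ZT13 replicate 3. *Cry2* (log2 fold change 0.06, adjusted p = 0.269), *Nr1d1*, which encodes REV-ERB alpha (0.10, 0.212), and *Ciart* (0.12, 0.339) did not pass, and their groups overlapped.

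*Arntl*, the gene of BMAL1, was at 34.6, 35.1, 36.5 and 36.3 CPM at ZT1 and 25.8, 26.5, 30.3 and 30.6 CPM at ZT13. Every ZT13 mouse lay below every ZT1 mouse (log2 fold change -0.33, SE 0.0548, adjusted p = 0.00217). It was the only one of 7 clock activator genes to pass. Its partner *Clock* differed by 0.04 (SE 0.0318, adjusted p = 0.483), *Npas2* by -0.03 (adjusted p = 0.855), and the ROR genes *Rora* and *Rorb* by -0.09 and 0.02 (adjusted p = 0.369 and 0.822). Of the PAR bZIP output factors, which carry clock phase to metabolic genes through D-boxes, *Dbp* was at 25.1, 26.2, 27.8 and 29.8 CPM at ZT1 and 40.3, 39.999, 35.4 and 36.0 CPM at ZT13, again without overlap (log2 fold change 0.48, SE 0.0585, adjusted p = 0.000262). *Hlf* (0.15, adjusted p = 0.0553), *Tef* (0.09, 0.0863) and the opposing repressor *Nfil3* (-0.08, 0.52) did not pass. Exons of *Dbp* overlap those of *Sphk2* on the opposite strand and exons of *Nr1d1* those of *Thra*, and no source used here states that reads were counted by strand. The same limit holds for other genes described below, among them *Plin4* (with *Hdgfl2*), *Junb* (with *Prdx2*) and *Rbm3* (with *Rbm3os*). On the same strand, exons of *Hsp90b1* overlap those of *Gm15344* and *Gm25745*.

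The promoter windows of these clock genes, from 250 bases before to 50 after a RefSeq start (GRCm38.p6), are shown because the loop described above acts through short motifs in them. The capitals in the first 4 windows mark the E-box CACGTG, and in that of *Per3* the D-box TTATGTAA. The windows lie at chr11:69098763-69098808 (plus strand, 1 of 2 starts), chr10:85185089-85185134 (minus strand), chr6:145865548-145865593 (minus strand), chr3:95882247-95882364 (minus strand) and chr4:151044796-151044890 (minus strand).
Per1: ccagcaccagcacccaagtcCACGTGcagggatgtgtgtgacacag
Cry1: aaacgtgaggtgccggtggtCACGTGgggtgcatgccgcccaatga
Bhlhe41: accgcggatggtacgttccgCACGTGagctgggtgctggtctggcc
Ciart: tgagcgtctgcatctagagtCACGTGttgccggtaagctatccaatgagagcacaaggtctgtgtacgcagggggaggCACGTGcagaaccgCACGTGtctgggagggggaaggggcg
Per3: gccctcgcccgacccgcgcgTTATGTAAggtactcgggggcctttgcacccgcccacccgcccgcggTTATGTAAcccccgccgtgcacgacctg

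An E-box CACGTG, which reads the same on both strands, was found in the windows of 4 of the 8 clock repressor genes that have one, against 11.4% of the 11523 tested genes with a window. Among genes that were higher at ZT13 the share was 11.7% (101 of 866), and among genes that were lower it was 83 of 694. *Ciart*, with 3 E-boxes, did not pass, while *Per3*, with none in its window, did. The D-box (TTATGTAA or TTACGTAA, both strands) was found for 0.877% of the tested genes, 0.808% of the higher and 0.720% of the lower genes. Of the motif of the ROR and REV-ERB receptors only the core was searched, AGGTCA on either strand, which is short and common. It was found for 14.6, 12.1 and 13.8%, which are not shares of the whole element. A match in a window describes letters and not binding, and sites outside the window were not searched.

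**Figure D2:**
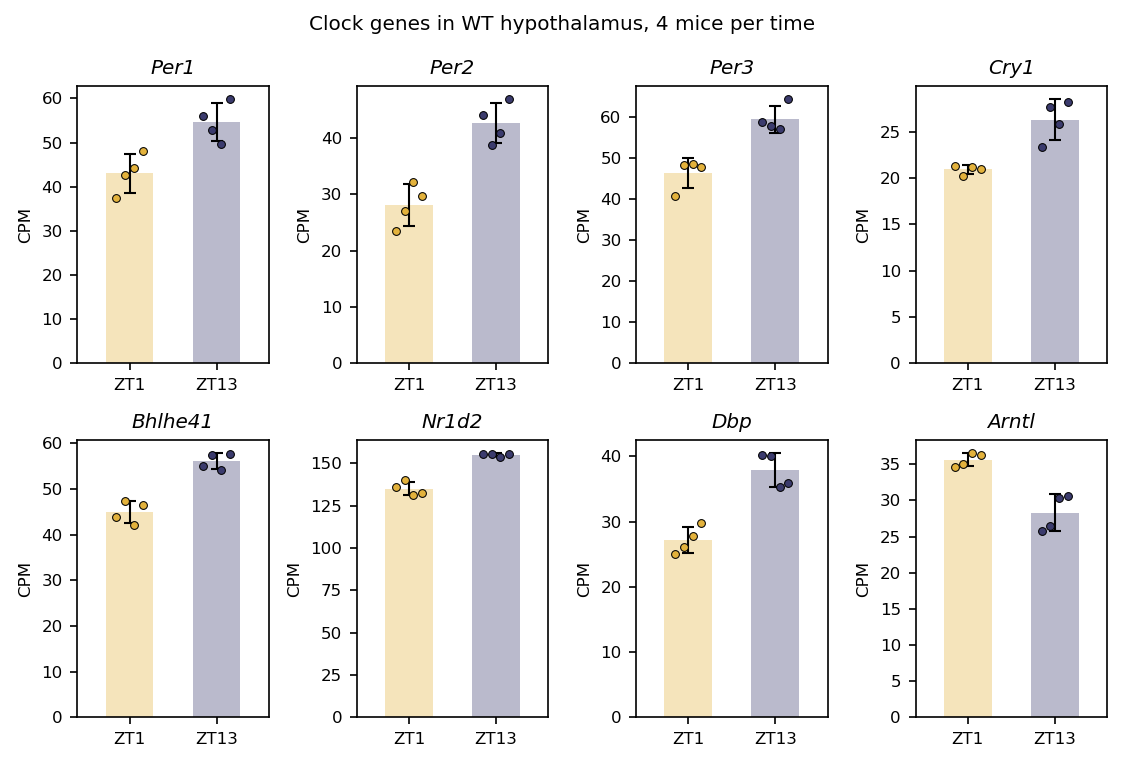
CPM (TMM-scaled) of 8 clock genes in WT hypothalamus at ZT1 and ZT13; dots are the 4 mice, bars the mean and error bars the SD. The mice at the 2 times do not overlap for any of the 8 genes; *Arntl* is the gene that is lower at ZT13.

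Of 25 genes that follow the clock in many tissues 12 were higher and none lower (median log2 fold change 0.19), and 7 were higher on the TPM scales. *Usp2*, a deubiquitinase of clock proteins, was at 19.3, 17.6, 19.4 and 18.5 CPM at ZT1 and 26.2, 26.4, 23.1 and 25.0 CPM at ZT13 (log2 fold change 0.43, SE 0.0520, adjusted p = 0.000239). *Coq10b*, a coenzyme Q carrier of mitochondria, had a log2 fold change of 0.31 (adjusted p = 0.000627), and *Sirt1*, an NAD-dependent deacetylase linked to the clock, of 0.24 (adjusted p = 0.0112). Of 17 genes enriched in the suprachiasmatic nucleus, 3 were higher (17.6%) and 1 lower (5.88%), beside 7.07 and 5.97% of all tested genes. *Rasd1*, a small G protein induced by glucocorticoid, was at 6.48, 7.94, 9.48 and 10.4 CPM at ZT1 and 11.9, 16.2, 15.5 and 19.1 CPM at ZT13 (log2 fold change 0.87, SE 0.144, adjusted p = 0.00213). *Avp*, the vasopressin gene, was at 32.6, 33.2, 23.6 and 34.6 CPM at ZT1 and 44.8, 38.7, 43.6 and 37.5 CPM at ZT13, without overlap (log2 fold change 0.41, SE 0.0957, adjusted p = 0.014). The adjusted p of *Avp* ranged from 1.73e-05 to 0.116 under other settings. Its log2 fold change in ASIC1a-/- mice was -0.28, and the interaction test given below did not call it. *Rgs16*, a regulator of G protein signalling, was lower (log2 fold change -0.46, SE 0.134, adjusted p = 0.0395), with groups that overlapped, and that p ranged from 0.000432 to 0.175 under other settings. It passed without ZT1 replicate 1 or 3. *Vipr2*, the receptor for the synchronising peptide VIP, was the other gene that passed (log2 fold change 0.52, SE 0.158, adjusted p = 0.0456), with overlapping groups and a call in 2 of the 8 fits without a mouse. Without ZT1 replicate 2, 5 of the 17 were higher, and on the TPM scales 1 was.

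Both cold-inducible RNA-binding protein genes were higher at ZT13. These proteins bind messenger RNA, and their transcripts fall when body temperature rises, as it does in mice at night. *Rbm3* was at 55.8, 52.4, 54.6 and 53.0 CPM at ZT1 and 92.4, 98.3, 102.13 and 90.5 CPM at ZT13. The lowest ZT13 mouse lay far above the highest ZT1 mouse (log2 fold change 0.83, SE 0.0414, adjusted p = 6.63e-08). *Cirbp* rose less, with 59.2, 58.4, 60.9 and 57.5 CPM at ZT1 and 69.1, 80.1, 72.4 and 68.025 CPM at ZT13 (log2 fold change 0.30, SE 0.0473, adjusted p = 0.00174), and both passed in each of the 8 fits without a mouse. Body temperature was not among the deposited values used here.

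Heat shock protein genes, which body warmth is known to induce through HSF1, were more often lower than higher. Of 48 cytosolic and mitochondrial members 14 were lower and 5 higher, with a median of -0.06, and 29 did not pass. The co-chaperone *Stip1*, which links HSP70 with HSP90, was at 297, 301, 279.5 and 299.9 CPM at ZT1 and 242, 245, 235 and 241 CPM at ZT13 (log2 fold change -0.29, SE 0.0282, adjusted p = 4.17e-05). *Hspa8*, the constitutive HSP70, was at 2673, 2713, 2552 and 2665 CPM at ZT1 and 2334, 2359, 2371 and 2398 CPM at ZT13 (log2 fold change -0.16, SE 0.0244, adjusted p = 0.00109), and *Dnajb2*, a co-chaperone of neurons, had a log2 fold change of -0.18 (adjusted p = 0.00177). None of these groups overlapped. Chosen after their values were seen, *Hsp90aa1*, the inducible HSP90, was at 1722, 1656, 1517 and 1599.7 CPM at ZT1 and 1415, 1422, 1393 and 1427 CPM at ZT13 (log2 fold change -0.20, SE 0.0331, adjusted p = 0.00217), and *Hsph1*, the nucleotide exchange factor of HSP70, had a log2 fold change of -0.24 (adjusted p = 0.00206). Against this direction went *Dnajb1*, an HSP40 that HSF1 induces, with 58.3, 58.5, 53.2 and 55.4 CPM at ZT1 and 68.9, 72.1, 67.9 and 89.4 CPM at ZT13 (log2 fold change 0.40, SE 0.0728, adjusted p = 0.00351). The other higher members were *Hspa2* (0.26), *Hsf2*, a heat shock factor (0.20), *Dnajb5* (0.16) and *Hspa14* (0.14). Without ZT1 replicate 2, 8 members were lower, without ZT13 replicate 3, 9, and without ZT1 replicate 1 or ZT1 replicate 4, 3 were higher. Of the heat shock genes 3 were lower and 2 higher on the TPM scales.

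Of 33 genes of endoplasmic reticulum chaperones and folding enzymes, 5 were lower (15.2%) and 4 higher (12.1%), beside 5.97 and 7.07% of all tested genes. *Calr*, the calcium-binding chaperone calreticulin, was at 384, 379, 350.2 and 368 CPM at ZT1 and 291, 291, 292 and 299 CPM at ZT13 (log2 fold change -0.34, SE 0.0293, adjusted p = 1.71e-05). *Hsp90b1*, the HSP90 of the endoplasmic reticulum, was at 631, 614, 567 and 596 CPM at ZT1 and 516, 487, 519 and 499 CPM at ZT13 (log2 fold change -0.25, SE 0.0334, adjusted p = 0.000489), and *Pdia6*, a disulfide isomerase, had a log2 fold change of -0.19 (adjusted p = 0.00192). *Pdia3*, another isomerase, and *Sel1l*, of the degradation machinery, were lower by smaller amounts (-0.14 and -0.09). *Herpud1* (0.19), *Edem1* (0.16), *Dnajc10* (0.13) and the stress factor *Atf4* (0.12) were higher, but 1 member was higher without ZT1 replicate 2 or 3 or without ZT13 replicate 1, 2 or 3, and 2 without ZT1 replicate 4. Of the folding genes 3 were lower and none higher on the TPM scales.

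The windows of 2 lower genes of the heat shock list and of *Sgk1*, a kinase induced by glucocorticoid, are shown for the motifs through which HSF1 and the glucocorticoid receptor bind. Capitals mark GAANNTTC or TTCNNGAA, joined where matches overlap, in *Hsph1* (chr5:149636287-149636389, minus strand, 1 of 2 starts) and *Chordc1* (chr9:18292243-18292316, plus strand), and the palindrome GNACANNNTGTNC in *Sgk1* (chr10:21993682-21993734, plus strand, 1 of 6 starts).
Hsph1: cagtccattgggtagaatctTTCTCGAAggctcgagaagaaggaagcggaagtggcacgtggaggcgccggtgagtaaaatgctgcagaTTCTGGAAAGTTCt
Chordc1: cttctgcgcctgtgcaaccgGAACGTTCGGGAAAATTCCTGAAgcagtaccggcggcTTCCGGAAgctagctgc
Sgk1: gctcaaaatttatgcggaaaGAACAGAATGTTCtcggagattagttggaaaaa

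The heat shock motif, which reads the same on both strands, was found for 19 of the 40 listed heat shock genes with a window (47.5%), against 13.8% of all tested genes, 12.1% of the higher and 14.6% of the lower genes. *Chordc1* itself passed narrowly (log2 fold change -0.16, SE 0.0454, adjusted p = 0.0348) and lost its call in 6 of the 8 fits without a mouse, ZT1 replicates 1, 2 and 4 and ZT13 replicates 1, 2 and 3 (0.0546 to 0.0978). The glucocorticoid receptor motif was found for 3 of 24 glucocorticoid-responsive genes, and for 0.408% of all tested, 0.924% of the higher and 0.288% of the lower genes, which are few genes in each case (8 higher and 2 lower).

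Glucocorticoid-responsive genes held several of the largest changes. Of 28 tested 14 were higher and 2 lower, with a median log2 fold change of 0.21, and 10 of the higher genes passed in each fit without a mouse. *Plin4*, which coats lipid droplets, was at 3.05, 2.42, 3.18 and 3.71 CPM at ZT1 and 25.1, 24.4, 24.5 and 25.5 CPM at ZT13. It had the smallest p of all genes and was 8.05-fold higher at ZT13 (log2 fold change 3.01, SE 0.0845, adjusted p = 1.17e-10). *Zbtb16*, a zinc finger repressor induced by glucocorticoid in many tissues, was at 6.76, 6.98, 7.99 and 7.74 CPM at ZT1 and 24.9, 23.6, 23.7 and 26.3 CPM at ZT13, or 3.34-fold higher (log2 fold change 1.74, SE 0.0625, adjusted p = 1.16e-09). *Tsc22d3*, the leucine zipper protein GILZ that carries anti-inflammatory effects of the hormone, was at 67.1, 61.5, 63.9 and 69.0 CPM at ZT1 and 105, 97.1, 96.6 and 97.6 CPM at ZT13 (log2 fold change 0.60, SE 0.0413, adjusted p = 1.86e-06). All ZT13 mice lay above all ZT1 mice for these 3 genes. *Fkbp5*, a chaperone that lowers the hormone affinity of the receptor, was at 29.9, 28.3, 27.0 and 28.4 CPM at ZT1 and 43.0, 47.5, 40.8 and 49.6 CPM at ZT13 (log2 fold change 0.67, SE 0.0577, adjusted p = 1.52e-05). *Hif3a*, a hypoxia-inducible factor subunit, was at 2.35, 2.17, 3.52 and 4.20 CPM at ZT1 and 8.53, 7.02, 9.02 and 8.07 CPM at ZT13 (log2 fold change 1.42, SE 0.167, adjusted p = 0.0002). The feedback gene *Nfkbia*, an inhibitor of NF-kB, had a log2 fold change of 0.30 (adjusted p = 0.0162). The opposite direction was taken by *Angptl4*, an inhibitor of lipoprotein lipase, at 5.64, 5.55, 4.56 and 4.97 CPM at ZT1 and 2.51, 2.73, 2.92 and 3.41 CPM at ZT13 (log2 fold change -0.84, SE 0.119, adjusted p = 0.000823), and by *Rhob*, a small GTPase (-0.15, adjusted p = 0.0399), which passed in 2 of the 8 fits without a mouse. Chosen after their values were seen, *Mertk*, a receptor for the uptake of dead cells, was at 0.86 (adjusted p = 6.81e-06) and *Sgk1* at 0.35 (adjusted p = 0.0199), the latter losing its call without ZT1 replicate 2 (0.0609), ZT13 replicate 1 (0.0549) or ZT13 replicate 3 (0.0523). Serum hormone at these times was not among the values used here.

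**Figure D3:**
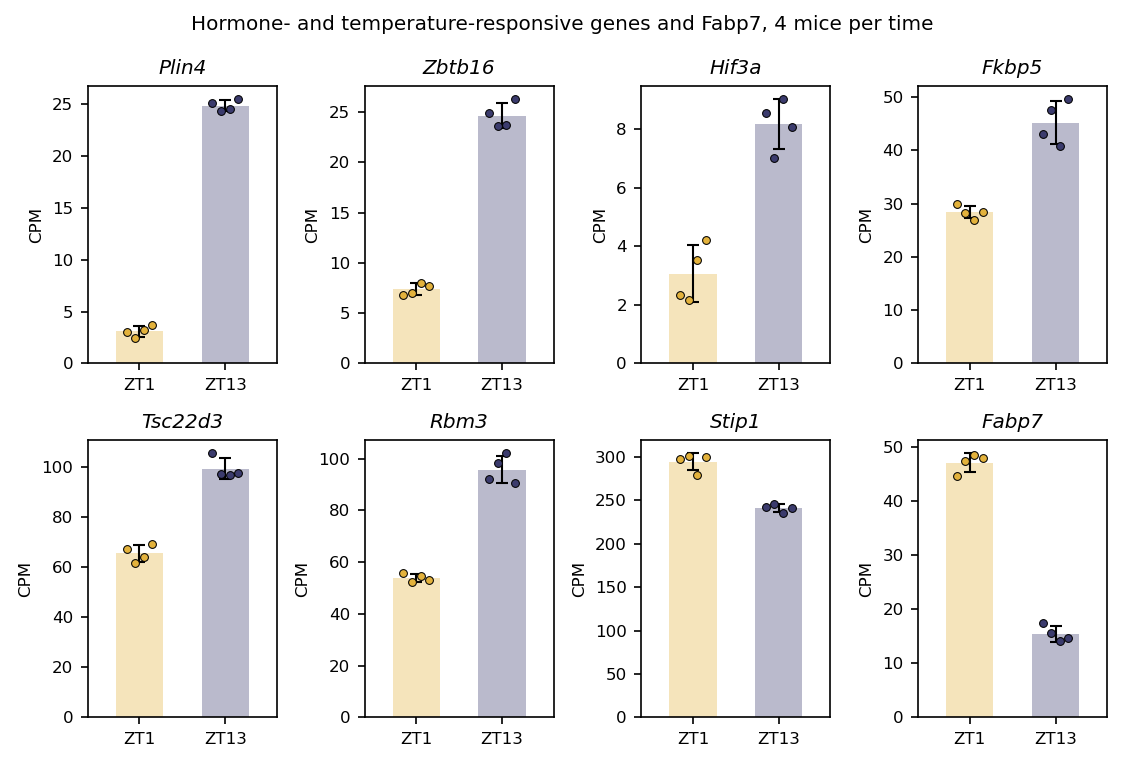
CPM (TMM-scaled) in WT hypothalamus at ZT1 and ZT13 of *Plin4*, *Zbtb16*, *Hif3a*, *Fkbp5* and *Tsc22d3*, which respond to glucocorticoid, of *Rbm3* and *Stip1*, which respond to temperature, and of *Fabp7*. Dots are the 4 mice, bars the mean and error bars the SD; the mice of the 2 times do not overlap in any panel, and *Stip1* and *Fabp7* are lower at ZT13.

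Neurons transcribe the rapid immediate early genes within minutes of activity. Of 43 tested 6 were higher (14%) and 1 lower (2.33%), beside 7.07 and 5.97% of all tested genes, with a median of 0.05. On the TPM scales 3 were higher. *Fos* was at 6.06, 7.29, 6.64 and 6.14 CPM at ZT1 and 13.6, 12.5, 8.90 and 17.3 CPM at ZT13, with ZT13 replicate 3 nearest to the ZT1 mice (log2 fold change 1.00, SE 0.153, adjusted p = 0.00136). *Junb*, its dimer partner, was at 5.48, 4.81, 4.64 and 4.14 CPM at ZT1 and 7.22, 7.24, 6.21 and 7.82 CPM at ZT13 (log2 fold change 0.58, SE 0.101, adjusted p = 0.00295). *Homer1*, a scaffold of glutamate receptors, had a log2 fold change of 0.17 (adjusted p = 0.0167). The gene that was lower, *Vgf*, encodes a secretory granule protein of neurons that is also counted among arcuate feeding peptides, and was at 166, 166, 167 and 177 CPM at ZT1 and 135, 147, 134 and 122 CPM at ZT13 (log2 fold change -0.33, SE 0.0462, adjusted p = 0.000743). In ASIC1a-/- mice the log2 fold change was 2.03 for *Fos*, 1.16 for *Junb* and -0.16 for *Vgf*, and the interaction test given below called none of them.

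The hypothalamus governs feeding and hormones through peptides and their receptors. Of 11 arcuate feeding peptide genes *Vgf* passed, and of 16 metabolic receptor genes *Adipor2* and *Ghsr*. These shares, 9.09% lower and 12.5% higher, stand beside 5.97 and 7.07% of all tested genes. *Adipor2*, a receptor for adiponectin, was at 71.6, 72.6, 73.4 and 75.5 CPM at ZT1 and 109.7, 105, 98.2 and 109 CPM at ZT13 (log2 fold change 0.53, SE 0.0376, adjusted p = 2.47e-06). The ghrelin receptor gene *Ghsr* was at 7.71, 6.81, 7.09 and 6.77 CPM at ZT1 and 8.70, 8.04, 8.28 and 8.68 CPM at ZT13, a small change with groups that did not overlap (log2 fold change 0.25, SE 0.0710, adjusted p = 0.036), and it passed in 2 of the 8 fits without a mouse. Of 15 thyroid axis genes 3 were higher (20%) and 2 lower (13.3%), with a median of -0.04. On the TPM scales 2 or 3 were higher and none lower. *Cga* is 1 of the 3 higher genes in this count. It passed the low-count filter only through ZT13 libraries and is described below, with the pituitary genes, without a test. *Dio2*, the tanycyte deiodinase that makes active thyroid hormone, was at 12.7, 12.6, 12.1 and 11.8 CPM at ZT1 and 19.5, 19.3, 16.4 and 17.1 CPM at ZT13 (log2 fold change 0.56, SE 0.0634, adjusted p = 0.000145). *Hr*, a corepressor induced by that hormone, was at 32.1, 29.5, 38.8 and 36.4 CPM at ZT1 and 45.0, 46.8, 44.9 and 46.1 CPM at ZT13 (log2 fold change 0.42, SE 0.0659, adjusted p = 0.00156). *Trh*, the releasing hormone at the head of this axis, overlapped between the times, with 75.9, 96.6, 76.0 and 80.2 CPM at ZT1 and 77.9, 85.3, 99.4 and 109.5 CPM at ZT13 (log2 fold change 0.18, SE 0.0954, adjusted p = 0.24; named after its values were seen). The lower genes were *Slco1c1*, a carrier of thyroid hormone (log2 fold change -0.19, SE 0.0444, adjusted p = 0.0138), and *Trhr2*, a receptor of TRH (log2 fold change -1.02, SE 0.300, adjusted p = 0.0403), which passed in 3 of the 8 fits without a mouse. In the stress axis, *Crh*, the corticotropin-releasing hormone gene, was at 2.35, 1.97, 1.77 and 2.40 CPM at ZT1 and 1.28, 1.62, 1.16 and 1.39 CPM at ZT13, without overlap (log2 fold change -0.64, SE 0.166, adjusted p = 0.0239). Under other settings that p ranged from 0.0185 to 0.0719. It lost its call without ZT1 replicate 1 (0.0535), ZT1 replicate 4 (0.0719), ZT13 replicate 1 (0.0542), ZT13 replicate 3 (0.0665) or ZT13 replicate 4 (0.0516). The transcription factor genes of hypothalamic nuclei rose in 8 of 36 cases with none lower (median 0.10), among them *Pou3f3* (0.19, adjusted p = 0.00863), *Dlx5* of GABA neurons (0.46, 0.0166) and *Rax*, the tanycyte homeobox gene (0.75, 0.0356). Without ZT13 replicate 4, 3 of them were higher, and without ZT1 replicate 4, 4 were. Of these factors 1 was higher on the TPM scales.

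The gene with the smallest p of those that fell was *Fabp7*, the brain fatty acid-binding protein of astrocytes and glial progenitors. It was at 44.6, 47.4, 48.6 and 48.0 CPM at ZT1 and 17.5, 15.7, 14.1 and 14.6 CPM at ZT13 (log2 fold change -1.61, SE 0.0580, adjusted p = 1.16e-09). *Mmp14*, a membrane-anchored metalloproteinase that cleaves matrix, was at 32.2, 29.6, 34.4 and 32.1 CPM at ZT1 and 14.4, 15.8, 12.2 and 14.2 CPM at ZT13 (log2 fold change -1.18, SE 0.0681, adjusted p = 3.5e-07). *Id2*, an inhibitor of basic helix-loop-helix factors, was at 55.1, 55.9, 53.5 and 58.9 CPM at ZT1 and 36.5, 36.0, 35.1 and 32.5 CPM at ZT13 (log2 fold change -0.67, SE 0.0429, adjusted p = 1.04e-06). These 3 genes passed in each fit without a mouse and their groups did not overlap. Of the others, *S100a16*, a calcium-binding protein, had a log2 fold change of -0.64 (adjusted p = 1.7e-06), *Creb5*, a CREB-family factor, of -0.79 (9.77e-05), *Casq2*, a calcium store protein, of -0.95 (0.00109), and *Aqp9*, a channel for water and glycerol, of -0.83 (0.00288). *Slc38a5*, a glutamine transporter, was at -0.83 (0.00849), *Ceacam1*, an adhesion molecule, at -0.80 (0.00215) and *Trac*, the T cell receptor alpha constant gene, at -1.04 (0.00148), the last at 1.14 to 3.63 CPM over all libraries. The remaining genes of this kind were *Exoc3l4* (-0.78, 0.00615), *Fhl4* (-0.88) and *Cd248*, a pericyte protein (-0.81). *Fhl4* and *Cd248* passed the low-count filter only through their ZT1 libraries, where they are high. Their values are therefore a description, with no test.

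Among other genes that rose, *Fmo2*, a flavin-containing monooxygenase, was at 0.782, 1.44, 0.985 and 1.11 CPM at ZT1 and 3.68, 3.18, 3.23 and 4.77 CPM at ZT13 (log2 fold change 1.78, SE 0.193, adjusted p = 9.77e-05). *Xdh*, the xanthine dehydrogenase that makes uric acid, was at 3.02, 2.53, 3.32 and 3.45 CPM at ZT1 and 6.65, 6.51, 7.06 and 6.43 CPM at ZT13 (log2 fold change 1.11, SE 0.104, adjusted p = 2.8e-05). *Etnppl*, an astrocyte enzyme that breaks down phosphoethanolamine, was at 95.4, 93.4, 88.1 and 93.6 CPM at ZT1 and 135, 131, 138 and 126 CPM at ZT13 (log2 fold change 0.52, SE 0.0352, adjusted p = 1.85e-06). Among more abundant genes, *Slc38a2*, which carries neutral amino acids, was at 124, 119, 121 and 115 CPM at ZT1 and 171, 163, 163 and 179.8 CPM at ZT13 (log2 fold change 0.50, SE 0.0356, adjusted p = 2.47e-06). No group overlapped in these 4 genes. *Kirrel2*, an adhesion protein of the immunoglobulin family, was at 1.31, 1.72, 1.43 and 1.43 CPM at ZT1 and 4.96, 3.69, 3.69 and 4.83 CPM at ZT13 (log2 fold change 1.54, SE 0.149, adjusted p = 3.9e-05). *Gabrr2*, the rho2 subunit of GABA receptors, was at 0.866, 1.52, 0.731 and 0.999 CPM at ZT1 and 2.08, 2.90, 2.98 and 2.75 CPM at ZT13 (log2 fold change 1.38, SE 0.212, adjusted p = 0.0014). *Ifit3*, an interferon-induced gene, had a log2 fold change of 0.80 (adjusted p = 0.000411). *Fam83d*, of the mitotic spindle, was at 1.04, given with no test since it passed the low-count filter only through ZT13 libraries. *Npcd* (1.59, 0.0148) shares exons with *Cbx6* and *Nptxr* on the same strand, so its counts depend on how reads were divided. Among Kruppel-like factors, *Klf15*, a glucocorticoid-responsive regulator of amino acid use, was higher (log2 fold change 0.50, SE 0.0510, adjusted p = 5.61e-05), as was *Klf13* (0.20, 0.00786), while *Klf11* was lower (log2 fold change -0.53, SE 0.0673, adjusted p = 0.000379).

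Of 41 GABA and glutamate receptor genes 10 were lower and 1 higher (*Gabrr2*), with a median of -0.05, and on the TPM scales 3 were lower. *Grm3*, a metabotropic glutamate receptor, was at 31.6, 31.3, 33.0 and 32.4 CPM at ZT1 and 27.2, 25.4, 24.4 and 22.3 CPM at ZT13 (log2 fold change -0.37, SE 0.0533, adjusted p = 0.000888). *Gabbr2*, a subunit of the GABA-B receptor, was at 248, 241, 262 and 266 CPM at ZT1 and 221, 223, 225 and 211 CPM at ZT13 (log2 fold change -0.21, SE 0.0333, adjusted p = 0.00175). Neither overlapped between the times. Without ZT13 replicate 1 or ZT13 replicate 4 the lower members numbered 5, and without ZT1 replicate 2, 6. Of 39 sodium, calcium and HCN channel genes 8 were lower and 2 higher, and without ZT13 replicate 4 or ZT1 replicate 4 the lower numbered 4 and 5. Of these channels 1 or 2 were lower and none higher on the TPM scales. The HCN genes, which carry the pacemaker current, split: *Hcn4* was higher at 18.5, 18.0, 18.1 and 18.3 CPM at ZT1 and 21.3, 21.2, 23.1 and 24.6 CPM at ZT13 (log2 fold change 0.30, SE 0.0521, adjusted p = 0.00256) and *Hcn2* lower at 137, 125, 131 and 131 CPM at ZT1 and 121, 116, 115 and 114 CPM at ZT13 (log2 fold change -0.17, SE 0.0326, adjusted p = 0.00529). Of 74 potassium channel genes 6 were higher (8.11%) and 5 lower (6.76%), near the 7.07 and 5.97% of all tested genes. Without ZT13 replicate 4 the higher numbered 2, and 3 without ZT1 replicate 2, 3 or 4. Of the potassium channels 3 were higher and 1 lower on the TPM scales. *Kcnn2*, a calcium-activated channel, rose (log2 fold change 0.41, SE 0.0521, adjusted p = 0.000317), as did *Kcna5* (0.32, 0.00215), and *Kcnip3*, the calcium sensor of A-type channels also known as DREAM, fell (log2 fold change -0.35, SE 0.0432, adjusted p = 0.000262).

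Markers of oligodendrocytes fell in part. Of 23 oligodendrocyte and myelin genes 11 were lower and none higher (median -0.13), 9 of them in each fit without a mouse. *Opalin*, a membrane protein of myelinating cells, was at 29.7, 27.8, 29.2 and 31.9 CPM at ZT1 and 21.1, 20.0, 20.0 and 17.2 CPM at ZT13 (log2 fold change -0.60, SE 0.0610, adjusted p = 5.61e-05). The lineage factor genes *Olig1* and *Olig2* were at 122 ± 6.55 CPM at ZT1 and 94.2 ± 4.22 CPM at ZT13 and at 34.4 ± 2.41 CPM at ZT1 and 24.6 ± 1.64 CPM at ZT13 (SD, n = 4), with log2 fold changes of -0.37 (adjusted p = 0.000135) and -0.48 (0.000234). *Mbp*, the gene of myelin basic protein, did not pass, at 1703, 1698, 1772 and 1726 CPM at ZT1 and 1826, 1678, 1701 and 1555 CPM at ZT13 (log2 fold change -0.03, SE 0.0386, adjusted p = 0.67), and was named after its values were seen. The summed level of the list overlapped between the times, with 6705 to 6949.8 CPM at ZT1 and 5991 to 7186 CPM at ZT13. Precursor markers were mixed, with *Vcan* higher (0.25, 0.00241) and *Cspg4* lower (-0.28, 0.00391).

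Vessel genes moved in both directions. Of 24 brain endothelial genes 8 were lower and 6 higher, and of 13 mural cell genes 5 were lower and none higher (median -0.28). On the TPM scales 2 endothelial genes were lower and 3 higher, and 2 mural genes were lower. The higher endothelial genes included transporters of the blood-brain barrier: *Mfsd2a*, the carrier of lysophospholipid with docosahexaenoic acid, was at 26.5, 20.6, 22.6 and 21.6 CPM at ZT1 and 36.9, 36.1, 37.5 and 37.9 CPM at ZT13 (log2 fold change 0.70, SE 0.0622, adjusted p = 2.01e-05). *Slc2a1*, the glucose carrier GLUT1, was at 75.7, 72.1, 76.9 and 77.5 CPM at ZT1 and 90.0, 92.2, 89.4 and 92.6 CPM at ZT13 (log2 fold change 0.27, SE 0.0321, adjusted p = 0.000223). *Kdr*, the receptor VEGFR2, was lower at 18.5, 16.5, 17.5 and 15.6 CPM at ZT1 and 10.5, 9.86, 10.4 and 12.1 CPM at ZT13 (log2 fold change -0.66, SE 0.0718, adjusted p = 0.0001). So were the tight junction gene *Cldn5* (log2 fold change -0.41, SE 0.0674, adjusted p = 0.00208) and the endothelial cadherin gene *Cdh5* (-0.35, 0.0055), both chosen after their values were seen. In mural cells, *Pdgfrb*, the receptor that defines pericytes, was at 29.5, 30.6, 35.3 and 33.4 CPM at ZT1 and 25.6, 25.0, 25.5 and 25.8 CPM at ZT13 (log2 fold change -0.34, SE 0.0528, adjusted p = 0.00151). *Vtn*, vitronectin, was at 49.0 ± 4.61 CPM at ZT1 and 35.3 ± 2.72 CPM at ZT13 (SD, n = 4; log2 fold change -0.47, SE 0.0651, adjusted p = 0.000612). The summed endothelial level was 478 to 512 CPM at ZT1 and 509 to 528 CPM at ZT13, and that of mural markers 190.5 to 214 CPM and 161 to 177 CPM. Of 22 astrocyte markers 3 were higher (13.6%) and 4 lower (18.2%), beside 7.07 and 5.97% of all tested genes. *Fgfr3* (0.25, 8e-05), the glutamine synthetase gene *Glul* (0.19, 0.00103) and *Gjb6* (0.14, 0.00774) were higher and *Fabp7*, *Cbs* (-0.24, 0.006), *Gja1* (-0.14, 0.0106) and *Gpr37l1* (-0.12, 0.0271) lower. Of 19 microglial markers *Cx3cr1*, the fractalkine receptor (-0.23, 0.00398), and *Fcrls* (-0.29, 0.0163) were lower, which is 10.5%.

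Transcripts of the pituitary were at low levels in WT mice. Of 13 listed anterior pituitary genes 6 passed the low-count filter, and of these *Cga*, *Fshb* and *Prl*, like *Cyp2f2* of the pars tuberalis, passed it only through ZT13 libraries, where they are high. Their values are therefore given as a description, with no test. *Cga*, the shared subunit of the glycoprotein hormones, was at 0.0838, 0.0282, 0.0844 and 0.0285 CPM at ZT1 and 4.28, 5.99, 0.142 and 7.76 CPM at ZT13, so that 3 of the 4 ZT13 mice held it and ZT13 replicate 3 was near the ZT1 mice. *Cyp2f2* followed the same mice with 0.0559, 0.0563, 0.281 and 0.0571 CPM at ZT1 and 2.37, 2.59, 0.142 and 3.61 CPM at ZT13. *Gh*, growth hormone, was at 0.475, 2.67, 0.253 and 0.685 CPM at ZT1 and 26.7, 10.9, 4.31 and 9.73 CPM at ZT13 (log2 fold change 3.65, SE 0.591, adjusted p = 0.00185). *Prl*, prolactin, was at 0.140, 0.788, 0.169 and 0.485 CPM at ZT1 and 8.99, 1.65, 1.33 and 1.64 CPM at ZT13, where ZT13 replicate 1 stood apart. *Fshb* was at 0, 0.0563, 0.0281 and 0 CPM at ZT1 and 0.799, 0.511, 0.0851 and 1.55 CPM at ZT13. In ASIC1a-/- mice *Cga* was at 0.698, 0.196, 4.33 and 6.26 CPM at ZT1 and at 4.63, 6.04, 0.306 and 0.0278 CPM at ZT13, so that mice with and without it occurred at both times. *Gh* in those mice was at 3.07, 11.5, 3.30 and 2.95 CPM at ZT1 and 3.38, 3.05, 0.306 and 1.11 CPM at ZT13. *Prl* was at 0.837, 2.38, 0.444 and 0.696 CPM at ZT1 and 0.654, 0.169, 0.0236 and 0.111 CPM at ZT13. Both genes thus had their highest ASIC1a-/- value at ZT1, with groups that overlapped. How much of the pituitary stalk each dissection held was not recorded in the sources used here and its part in these values was not tested. Of 18 cortical, 15 meningeal, 5 blood cell and 14 midbrain markers none passed. Of 16 thalamic markers *Rgs16*, *Vav3* (-0.39, 0.0495) and *Ntng1*, an axon guidance gene (log2 fold change -0.34, SE 0.0747, adjusted p = 0.0108), were lower, with 1 to 5 lower over the fits without a mouse (1 without ZT1 replicate 2 or 4 or without any ZT13 mouse, 5 without ZT1 replicate 1), and none on the TPM scales, beside the thalamic sums given above. The part of thalamic tissue in the calls was not tested.

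Of 35 splicing factor genes 10 were higher and none lower (median 0.07), with *Hnrnpdl* at 136, 141, 145 and 145 CPM at ZT1 and 164, 153, 169 and 163 CPM at ZT13 (log2 fold change 0.19, SE 0.0338, adjusted p = 0.00302) and *Tra2b*, a splicing activator, at 0.20 (0.004). Without ZT13 replicate 3, 5 were higher, and on the TPM scales 1 was. Of 357 zinc finger genes 47 were higher (13.2%) and 11 lower (3.08%), with *Zfp251* (0.19, 0.00231) and *Zfp790* (0.31, 0.00237) as examples. The higher numbered 23 to 28 without ZT1 replicate 2, 3 or 4 or without ZT13 replicate 3 or 4, and the lower 5 to 7 without ZT1 replicate 2, 3 or 4 or without ZT13 replicate 1, 2 or 4. Of the zinc finger genes 4 or 6 were higher and 1 lower on the TPM scales. Of 37 proteasome subunit genes 5 were higher (*Psmc2*, *Psmb2*, *Psmd4*, *Psmc3* and *Psma1*, at 0.10 to 0.13), but none without ZT1 replicate 3, ZT1 replicate 4 or ZT13 replicate 3, 1 without ZT1 replicate 2 or ZT13 replicate 2, 2 without ZT13 replicate 1 and 12 without ZT1 replicate 1. Of the subunits 2 were higher on the TPM scales. *Neat1*, the long non-coding RNA that builds paraspeckles, was at 161, 179, 199.7 and 191 CPM at ZT1 and 147, 123.35, 143 and 119.7 CPM at ZT13 (log2 fold change -0.45, SE 0.0709, adjusted p = 0.00151). Of 80 cytosolic ribosomal protein genes none passed and of 91 genes of oxidative phosphorylation only *Ndufb2* (-0.17, 0.0246). Of 13 mitochondrial genome transcripts *mt-Atp6* was higher (0.70, 0.0357) and *mt-Co2* lower (-0.27, 0.0332), in 2 and 3 of the 8 fits without a mouse, and neither passed on the TPM scales. Exons of *mt-Atp6* overlap those of *mt-Atp8* and *mt-Co3*, so its counts are uncertain.

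**Figure D4:**
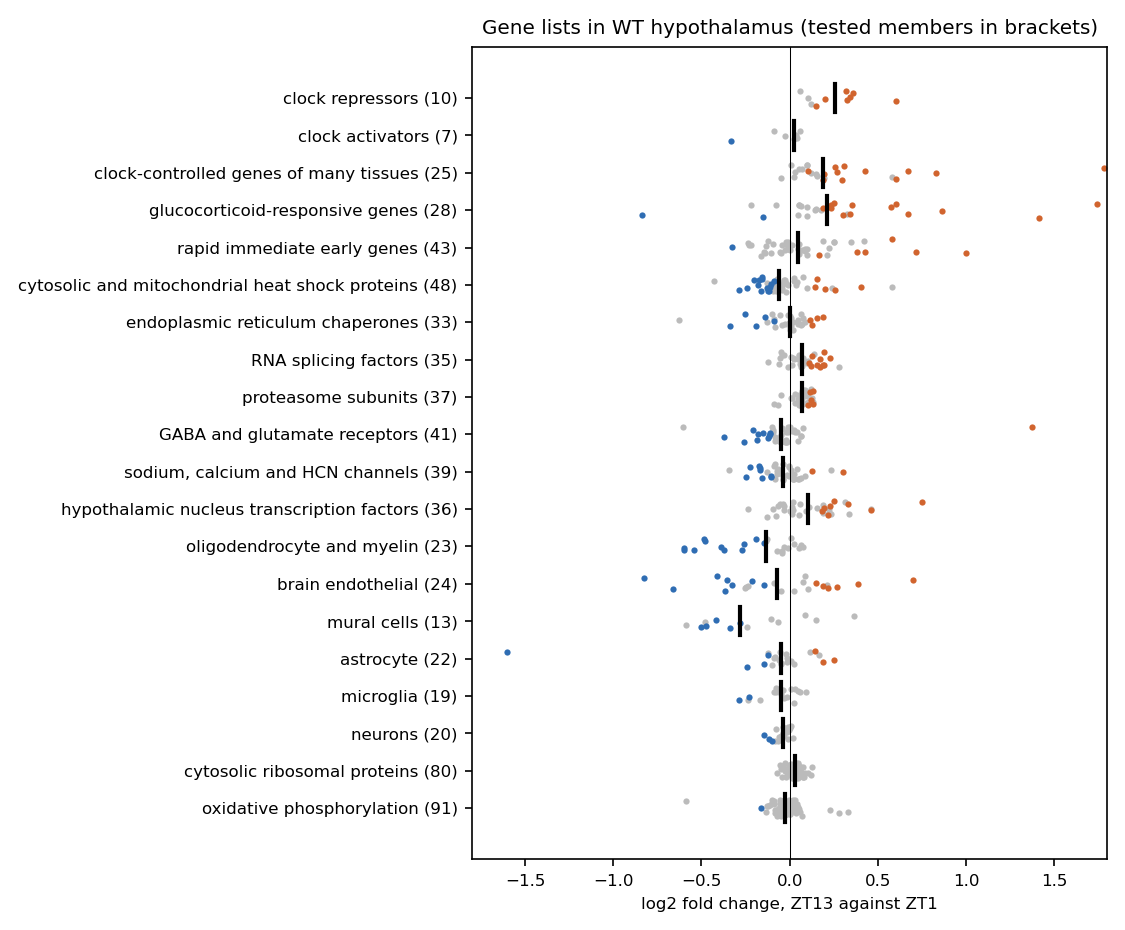
Log2 fold change between ZT13 and ZT1 in WT hypothalamus of the members of 20 gene lists. Dots are genes, orange where higher and blue where lower at ZT13 (adjusted p under 0.05) and grey otherwise, black marks are list medians and 1 gene (*Plin4*) lies outside the axis. The median of clock repressors is 0.26 and that of mural cell genes -0.28.

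The change with time was also read in the 8 ASIC1a-/- mice, which share no library with the WT comparison and were fitted on their own. There 798 genes were higher (5.12%) and 455 lower (2.92%) at ZT13. Of 14 midbrain and mammillary markers 10 passed in these mice (median -0.52), against none in WT mice (median -0.07). The 15 meningeal markers had a median of -0.94 in ASIC1a-/- mice, with none passing, and of -0.01 in WT mice. The part of such neighbouring tissue in the ASIC1a-/- calls was not tested. Of the 1101 genes higher in WT mice, 1070 had a log2 fold change above 0 in ASIC1a-/- mice (97.2%), where 48.1% of all tested genes were above 0, and 508 passed, which is 46.1% of the WT calls and 63.7% of those in ASIC1a-/- mice. Of the 930 genes lower in WT mice, 905 were below 0 (97.3%) and 293 passed, or 31.5% and 64.4%. Across the 2031 genes called in WT mice, Spearman's rho between the log2 fold changes of the genotypes was 0.88 (Pearson's r 0.12), and across all tested genes 0.60 (0.068). These are across genes, which are not independent replicates. *Plin4* was at 2.60 in ASIC1a-/- mice, *Zbtb16* at 1.18, *Fabp7* at -1.59, *Rbm3* at 0.77, *Per2* at 0.49 and *Arntl* at -0.21. The 2 genes called in opposite directions were *Gm10273* and *AC102496.1*. *Gm10273* was at 0 CPM in all 4 WT mice at ZT1 and at 8.99, 0.170, 0 and 6.66 CPM at ZT13. It thus passed the low-count filter only through ZT13 libraries, and its values are a description. *AC102496.1*, a long non-coding RNA, had log2 fold changes of 0.83 and -0.83.

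A test of the interaction of genotype and time over all 16 libraries called 3 genes (0.0193%), *Egr1*, *Nr4a1* and *Ddit4*, while 608 were below 0.05 before adjustment. DESeq2 called 12 and edgeR without the low-count filter 17. *Egr1*, an immediate early zinc finger factor, had a log2 fold change of 0.38 in WT and 1.47 in ASIC1a-/- mice (interaction 1.09, adjusted p = 0.00012). *Nr4a1*, a nuclear receptor of the same class of rapid genes, was at 0.01 and 1.03 (interaction 1.02, adjusted p = 0.00136), and *Ddit4*, an inhibitor of mTOR complex 1, at 0.05 and 0.51 (interaction 0.45, adjusted p = 0.00174). For no other gene was a WT change shown to differ from that in ASIC1a-/- mice by this test.

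**Figure D5:**
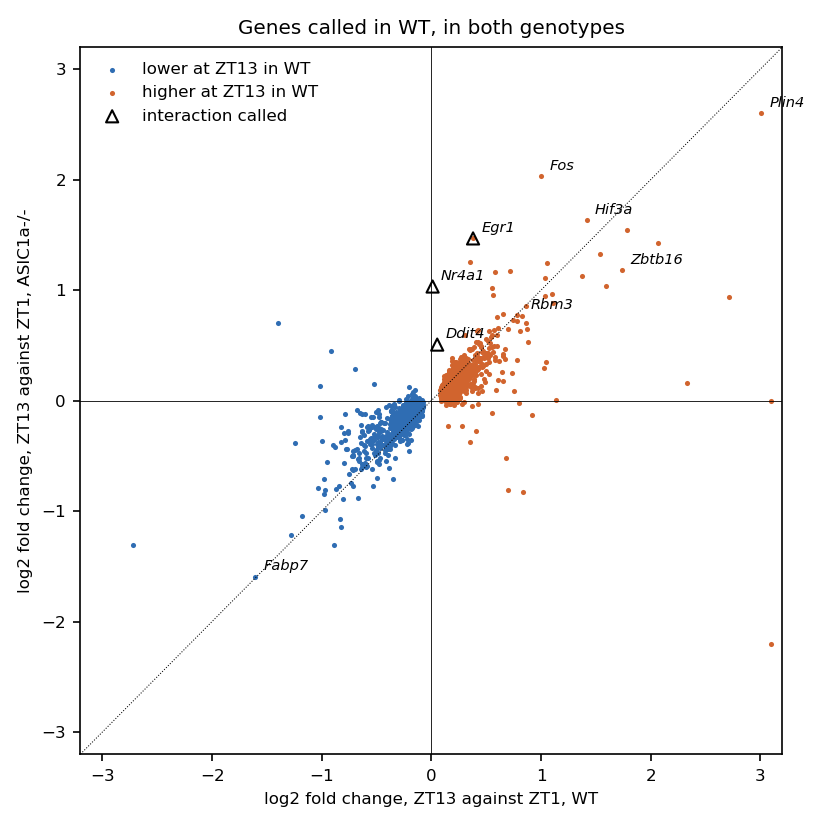
Log2 fold change between ZT13 and ZT1 in ASIC1a-/- against WT hypothalamus for the 2031 genes called in WT mice (dots, orange higher and blue lower in WT), with the line of equal change dotted. Open triangles mark the 3 genes called by the interaction test, all above the line, and 5 genes lie outside the axes.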

How the data were processed

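The deposited tables give, for each of 55401 Ensembl genes in each library, an expected count and TPM. Per the labels and the study's methods, the authors removed adapters from the read pairs (cutadapt 1.8), aligned to the mouse transcriptome (GRCm38) with STAR 2.5.3a and made the expected count with RSEM 1.2.31, which divides reads that fit several transcripts, so that values of paralogs and overlapping genes depend on that division. Gene counts that the study's methods describe from HTSeq 0.9.1 were not used here, and the role of the build mm9, also named in the submitters' notes, is not given. The TPM values, which the authors' RSEM run scales by effective transcript length and library total, entered only as an alternative. Gene symbols came from GENCODE M21 (55141 of the identifiers) and promoter sequences from RefSeq (GRCm38.p6).

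Expected counts were rounded, and genes with a CPM over 1 in at least 1 of the 8 WT libraries were tested for ZT13 against ZT1 with no covariate. The test was glmQLFit and glmQLFTest of edgeR 4.0.16 (R 4.3.3) after TMM scaling, tested on simulated data. The fit had 6 residual and 7.64 prior degrees of freedom and a biological coefficient of variation of 5.00%. P values were adjusted over all tested genes by the Benjamini-Hochberg method, and "higher", "lower", "rose" and "fell" mean an adjusted p under 0.05. The ASIC1a-/- mice were fitted alone on the same genes, and the interaction was fitted over all 16 libraries. No library is a copy of another of its group, since chi-square per degree of freedom was 3.20 to 8.76 within groups. Both the spread between 4 mice and counting error set the precision of a gene, and counting error weighs more at low CPM.

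Gene lists, 59 in number, are described by counts and medians with no test of a list, and promoter motifs by shares alone. The members and lists were chosen with earlier results of these data known. Genes were named by a rule: the 12 highest and 12 lowest called genes with a mean of at least 1 CPM, an established symbol and groups that do not overlap, the 10 called genes with the smallest p, every tested clock repressor, clock activator, PAR bZIP and cold-inducible gene, and up to 3 members of each other list with the smallest p. Others were named after their values were seen, mostly to complete counts of 5 or fewer, and some members of the lists are not reported here. Alternatives were size factors of DESeq2, library size only, no low-count filter, edgeR's filterByExpr, DESeq2 1.42.0, limma-voom (limma 3.58.1), log2(TPM + 1) and log2(TPM + 0.1) with limma, unrounded counts, a fit of all 16 libraries, stricter thresholds, the replicate number as a block and the omission of each mouse. Python 3.11.15 and matplotlib 3.10.9 drew the figures.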

Additional observations from a re-analysis of the deposited data

Results flagged for a closer look

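Of 366 groups of 4 mice examined (183 named genes at each time), 18 had a mouse apart from the others by Dixon's ratio, where chance gives about 1 in 20 groups, so the number is near that share. ZT1 replicate 1 was at 40.8 CPM for *Per3* (others 47.8 to 48.5) and 70.6 CPM for *Ep300* (others 79.1 to 79.8). ZT1 replicate 2 was at 22.2 CPM for *Mrps6* (others 20.7 to 20.9). ZT1 replicate 3 was at 279.5 CPM for *Stip1* (others 297 to 301), 0.281 CPM for *Cyp2f2* (others 0.0559 to 0.0571), 279 CPM for *Enpp2* (others 293 to 295) and 51.2 CPM for *Ndufb2* (others 57.6 to 58.6). ZT1 replicate 4 was at 177 CPM for *Vgf* (others 166 to 167). ZT13 replicate 1 was at 8.99 CPM for *Prl* (others 1.33 to 1.65), 105 CPM for *Tsc22d3* (others 96.6 to 97.6), 10.4 CPM for *Ciart* (others 8.96 to 9.18) and 188 CPM for *Adcy5* (others 193 to 194). ZT13 replicate 2 was at 37.4 CPM for *Atp5mpl* (others 32.7 to 33.3). ZT13 replicate 3 was at 154 CPM for *Nr1d2* (others 155.6 to 155.7), 45.1 CPM for *Akt2* (others 50.3 to 50.8) and 19.5 CPM for *Nfe2l2* (others 22.95 to 23.3). ZT13 replicate 4 was at 299 CPM for *Calr* (others 291 to 292) and 22.96 CPM for *Npy1r* (others 20.7 to 20.9).

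The change with time differed between genotypes in the interaction test for *Egr1* (interaction 1.09 on the log2 scale, adjusted p = 0.00012), *Nr4a1* (1.02, adjusted p = 0.00136) and *Ddit4* (0.45, adjusted p = 0.00174), each with the larger rise at ZT13 in ASIC1a-/- mice.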

How the results depend on the processing

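Against 1101 higher and 930 lower genes, size factors of DESeq2, library size only, no low-count filter, filterByExpr, DESeq2, limma-voom, unrounded counts and a fit of all 16 libraries called 1065 to 1236 higher and 814 to 963 lower, and 59.4% of the calls were higher without the filter against 54.2%. The omission of each mouse left 667 to 1007 higher and 530 to 891 lower. With limma on log2(TPM + 1) there were 208 higher and 227 lower genes, and on log2(TPM + 0.1) 219 and 230, of which 418 and 431 were among the 2031; the cause was not tested. An adjusted p under 0.01 left 399 higher and 311 lower, and a log2 fold change of at least 0.5 besides left 82 and 105. For the interaction DESeq2 called 12 genes and edgeR without the filter 17, against 3. With the replicate block, 1005 genes were higher and 835 lower, 6 were called for the interaction, and 665 against 1253 in ASIC1a-/- mice. The replicate numbers did not pair the mice, since deviations of same-numbered mice correlated at 0.060, 0.090, -0.075 and -0.032, and not every mouse correlated best with its own number. Of 181 named genes, 61 to 67 lost a call on the TPM scales and 10 or fewer under the other settings that keep all mice. Log2 fold changes of 3 genes that were never called turned direction. Over the fits without a mouse they were -0.0104 to 0.0927 for *Arntl2*, -0.0203 to 0.0602 for *Rorb* and -0.0568 to 0.0341 for *Npas2*, which was at 0.00699 on log2(TPM + 0.1) and 0.00574 on log2(TPM + 1). Of the sets ranked by mean CPM the lowest had the smallest share called (5.34%), and the part of sequencing depth in this was not tested.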

Other observations

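Of 35 genes of the Akt and mTOR pathway 4 were higher (11.4%) and 1 lower (2.86%) at ZT13. Over all tested genes these shares were 7.07 and 5.97%. *Tsc1*, a brake on mTOR complex 1, had a log2 fold change of 0.15 (adjusted p = 0.00873), *Foxo3*, a transcription factor restrained by Akt, of 0.15 (0.0142) and *Akt2* of -0.18 (0.0173). The first 2 passed in each of the 8 fits without a mouse, and *Akt2* in 7. The list had 2 higher genes without ZT1 replicate 2 or ZT13 replicate 3. Among 21 genes of CREB, CRTC and SIK signalling 14.3% were higher and 4.76% lower. The coactivator genes *Ep300* (0.19, 0.0138) and *Crebbp* (0.17, 0.0207) were higher, as was *Creb1* (0.15, 0.0313). In this list 1 gene was higher without ZT1 replicate 4 or ZT13 replicate 3.

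*Nfe2l2*, the gene of the antioxidant regulator NRF2, was higher (log2 fold change 0.30, adjusted p = 0.0114), with *Prdx6*, a peroxiredoxin, at 0.13 (0.0216). They were among 4 of 20 antioxidant genes (20%) that were higher, with 1 higher without ZT1 replicate 3 or 4 and 2 without ZT13 replicate 1 or 3. With limma on either TPM scale no gene of these 3 lists passed. Of 32 genes of autophagy and the lysosome 3 were higher (9.38%) and 4 lower (12.5%), beside 7.07 and 5.97% of all tested genes. *Hexa*, a lysosomal hexosaminidase, was at -0.32 (0.000132) and *Map1lc3b*, a protein of the autophagosome, at -0.17 (0.00726). The list had 1 higher gene without ZT1 replicate 2 or 4 or without ZT13 replicate 1, 2 or 3, and 2 lower without ZT1 replicate 4 or ZT13 replicate 3 or 4. On the TPM scales none was higher and 1 lower. Exons of *Hexa* and *Map1lc3b* overlap those of *Tmem202* and *Zcchc14* on the opposite strand. Of 269 solute carrier genes 15 were higher (5.58%) and 28 lower (10.4%), beside 7.07 and 5.97% of all tested genes. Without ZT1 replicate 4, 10 were higher and 17 lower, and on the TPM scales 4 or 5 were higher and 3 lower.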
